A study of Homo sapiens with 4 samples.

Results

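The RNAs described here are long intergenic noncoding RNAs (symbols that start with LINC), antisense RNAs (symbols that contain -AS) and ESRG, a noncoding RNA known from human embryonic stem cells. A gene was taken where every transcript ID carried the RefSeq noncoding prefix NR_, the symbol had 1 of these forms, and the expected counts summed to at least 40 over all libraries. This gave 323 RNAs out of 19390 gene IDs, made up of 120 LINC RNAs, 202 antisense RNAs and ESRG. Another 483 LINC or antisense RNAs stayed under 40 counts and are not members, and 57 genes with such symbols had a coding transcript and were left out. The RNAs were thus selected on their measured counts, and an RNA could enter through the single day on which it was high. The last RNAs left out were LINC01235, BDNF-AS and LINC01881, with 39.07, 39.09 and 39.61 summed counts. The first inside were TSPEAR-AS2, LINC00886 and FGF13-AS1, with 41.0, 41.12 and 42.0 summed counts.

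The libraries came from H1 cells, an established human embryonic stem cell line, with the genotype given as Wild Type for all 4 libraries, grown in a custom form of mTeSR1 medium. Day 0 was before treatment. Day 2 followed activin A (40 ng/ml) with BMP4 (50 ng/ml), and days 3 and 4 followed a switch at day 2 to VEGF (40 ng/ml) with bFGF (50 ng/ml). Each day is 1 library, made with an Illumina TruSeq RNA kit, so differences between days cannot be checked against replicates and carry no p-value. The 95% intervals reflect counting error alone. Total expected counts were 5.04, 5.20, 5.20 and 5.49 M at days 0, 2, 3 and 4, so that a single read equals 0.182 to 0.196 CPM, the unit of counts relative to the scaled library total. The sources used here do not say that strand was kept in the libraries, so reads of an antisense RNA and of an overlapping gene cannot be told apart.

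Long noncoding RNAs are transcribed and often spliced like messenger RNAs but are not known to make a conserved protein. Many are found in few cell types, and antisense RNAs often start close to the promoter of the gene on the opposite strand. Human pluripotent cells express a set of such RNAs, ESRG and LINC-ROR among them, that contain sequence of the endogenous retrovirus family HERV-H. The markers of the cells followed the labels. Summed over 8 measured pluripotency genes, CPM was 7306, 1771, 975.1 and 588.4 at days 0, 2, 3 and 4. Over 10 genes of blood and endothelium it was 219.5, 440.6, 1156 and 1736 CPM. KDR alone made up 209.4, 353.7, 867.6 and 942.4 CPM of these sums, and each of the 10 genes was higher at day 4 than at day 0. Primitive streak genes were highest at day 2, with 657.5 CPM, against 1.55 CPM at day 0. In bulk RNA, fewer cells of a type and less RNA per cell cannot be told apart.

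As a group, these RNAs lost most of their place in the library, and ESRG made up most of that loss. They held 1.43% of all counts at day 0 (exact 95% interval 1.42 to 1.44%), 0.904% at day 2, 0.662% at day 3 and 0.495% at day 4 (0.489 to 0.500%). ESRG alone held 0.736% at day 0 (0.729 to 0.743%), 0.287% at day 2, 0.0961% at day 3 and 0.0225% at day 4 (0.0212 to 0.0238%). Without ESRG the other RNAs held 0.693, 0.618, 0.566 and 0.472% on the same days. Much of this smaller decline lay in a few RNAs of high level. The 6 that are described next to ESRG summed to 1380, 812.2, 357.1 and 116.5 CPM at days 0, 2, 3 and 4, and UGDH-AS1 and LINC00987 together to 1455, 1097, 1094 and 798.3 CPM. The other 314 RNAs summed to 3933, 4388, 4240 and 3798 CPM, highest at day 2 and lowest at day 4. The 6 were chosen for their decline, so a flatter sum in the rest follows in part from that choice.

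**Figure D1:**
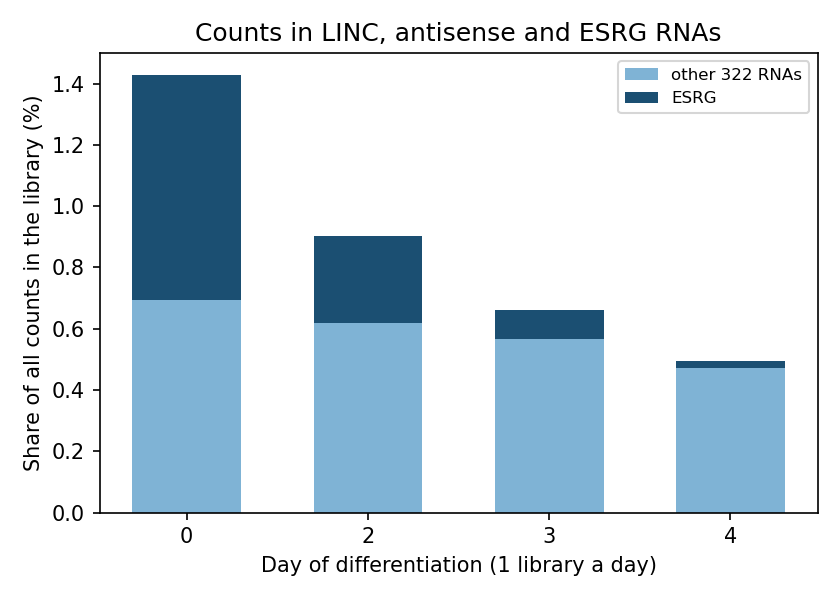
Share of all expected counts in each library (vertical axis, %) held by ESRG (dark) and by the other 322 RNAs (light) on days 0, 2, 3 and 4, with 1 library a day. The bars reach 1.43% at day 0 and 0.495% at day 4, and the dark part shrinks to 0.0225%.

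Most of the RNAs were present throughout and at low levels. Of 323, 319 were listed in all 4 libraries and 291 had at least 1 CPM in every one. The median mean level was 6.26 CPM, 106 RNAs averaged at least 10 CPM, and 136 averaged under 5 CPM. On the deposited FPKM scale, which corrects for length, the median member had 2.64, 3.03, 3.13 and 2.52 FPKM at days 0, 2, 3 and 4, below the medians of 5.48, 5.79, 5.96 and 5.65 FPKM over all listed genes. The 3 RNAs with the most counts held 45.0% of the counts of all 323, and ESRG held 32.2%.

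ESRG was the clearest case of loss. It had 7190, 2922, 966.1 and 224.3 CPM at days 0, 2, 3 and 4, and each library lay below the one before it. By FPKM it was the 6th highest of all genes at day 0, the 31st at day 2, the 150th at day 3 and the 965th at day 4. It was 2.46-fold lower at day 2 than at day 0 (95% interval 2.41 to 2.51), 3.02-fold lower at day 3 than at day 2 (2.93 to 3.12), and 4.31-fold lower at day 4 than at day 3 (4.05 to 4.59). The step between neighbouring libraries thus widened along the series. Over the whole course it was 32.1-fold lower at day 4 than at day 0 (30.3 to 34.0). Even at day 4 it remained the 4th highest of the 323 RNAs by FPKM, with 71.0 FPKM.

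In all, 26 of the 323 RNAs were lower in each later library, and 15 of these were also called lower at day 4 against day 0 by the 2-fold rule given below. The share of all genes with such a steady decline was not computed, so neither count is set against a background. The 15 include 7 that had at least 100 CPM at day 0, which are ESRG and the 6 RNAs of this paragraph, with 128.0 to 301.8 CPM. These 7 were chosen after their values were seen. LINC-ROR, first described as an RNA that promotes reprogramming to pluripotency, had 201.7, 116.7, 45.0 and 11.3 CPM at days 0, 2, 3 and 4. PM20D1-AS1 had 259.9, 128.5, 47.0 and 13.6 CPM, and SNCAIP-AS3 had 128.0, 97.7, 32.7 and 10.7 CPM. In all 7 RNAs, these 3 among them, the ratio of day 4 to day 2 was smaller than that of day 2 to day 0. LINC-ROR was 17.9-fold lower at day 4 than at day 0 (13.9 to 23.5), PM20D1-AS1 19.1-fold (15.1 to 24.4) and SNCAIP-AS3 11.9-fold (9.14 to 15.9). LINC02582 had 301.8, 190.3, 87.5 and 22.9 CPM and was 13.2-fold lower at day 4 than at day 0 (11.0 to 15.9). TLR8-AS1 had 256.8, 148.9, 72.3 and 18.5 CPM and was 13.8-fold lower (11.3 to 17.1). LINC02275 had 232.3, 130.1, 72.7 and 39.4 CPM and was 5.89-fold lower (5.09 to 6.84), so it kept the largest part of its day 0 level among the 7 RNAs with ESRG.

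The change at day 2 was under 2-fold in most of these RNAs. Of the 7, only ESRG and PM20D1-AS1 were at least 2-fold lower at day 2 than at day 0. LINC-ROR, TLR8-AS1, LINC02275, LINC02582 and SNCAIP-AS3 had ratios of 0.579, 0.580, 0.560, 0.631 and 0.763. The pluripotency factor SOX2 followed another course, with 285.7 CPM at day 0 and 0.785, 0.773 and 1.27 CPM at days 2, 3 and 4. POU5F1 had 939.6, 403.5, 204.3 and 126.5 CPM, and L1TD1, an RNA-binding protein of pluripotent cells, had 1570, 644.0, 233.3 and 108.0 CPM. The ratio of day 2 to day 0 was thus 0.406 to 0.763 in the 7 RNAs and 0.00275 in SOX2. The other measured pluripotency genes were mixed. POU5F1, L1TD1 and NANOG had ratios of 0.4295, 0.4102 and 0.4374, inside the range of the 7 RNAs. DPPA4, DNMT3B, PRDM14 and USP44 had ratios of 0.2349, 0.1364, 0.02484 and 0.01722, below that range.

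**Figure D2:**
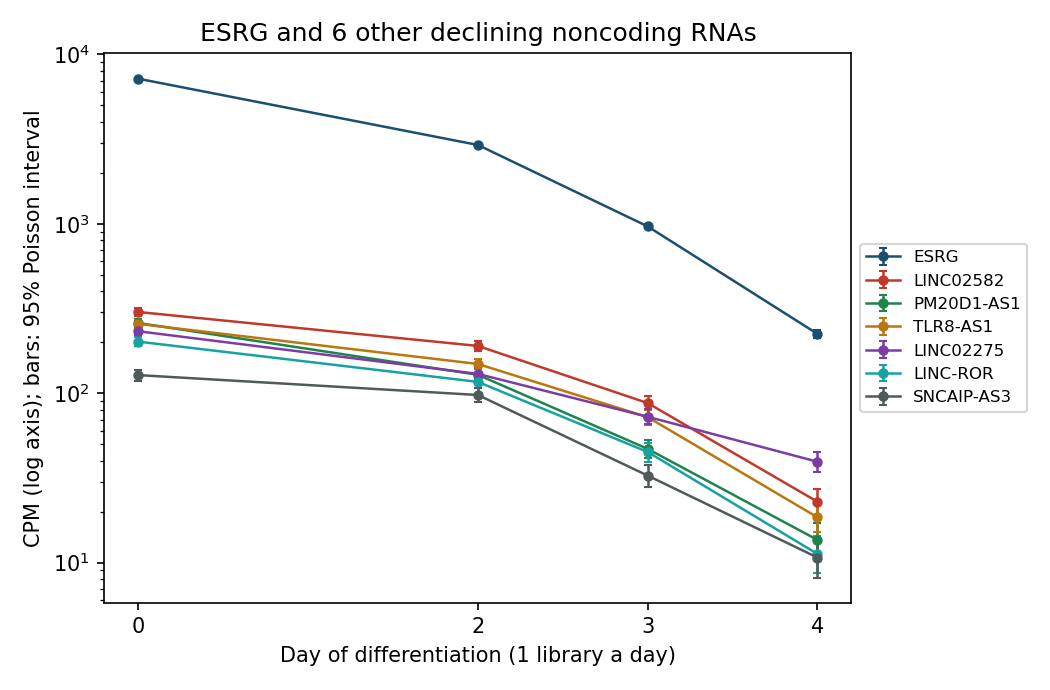
CPM (vertical log axis) of the 7 RNAs with at least 100 CPM at day 0 that were lower in each later library and called lower at day 4, against day of differentiation, with 1 library a day; bars are exact 95% Poisson intervals. ESRG stands at 7190, 2922, 966.1 and 224.3 CPM, and the other 6 end between 10.7 and 39.4 CPM.

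None of these 7 RNAs had whole expected counts in every library, so the estimate divided at least some of their reads among genes. Of all 323 RNAs, 91 had whole counts in all 4 libraries. Of the 39 that were lower at day 4 than at day 0, 11 had whole counts and 28 did not, and of the 30 that were higher, 18 had whole counts and 12 did not. The part of shared reads in the common curve was not tested.

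RefSeq gives a promoter window, 250 bases before to 50 after the annotated start in GRCh38.p14, for 232 of the 323 RNAs. Shown here are windows of PM20D1-AS1 and SNCAIP-AS3 from the declining group, since these moved together. LINC02275 of this group also has a window, with a GATA match and no octamer, which is not shown. ESRG, LINC-ROR, LINC02582 and TLR8-AS1 have no window. Capitals mark matches to motifs of the SOX, GATA and TATA families, searched on both strands. PM20D1-AS1 (chr1:205861829-205862128, plus strand) has TGATAA starting 122 bases before the start. SNCAIP-AS3 (chr5:122479038-122479337, minus strand) has ACAATG 78 bases, TTTATA 60 bases and TATAAA 31 bases before the start.
PM20D1-AS1: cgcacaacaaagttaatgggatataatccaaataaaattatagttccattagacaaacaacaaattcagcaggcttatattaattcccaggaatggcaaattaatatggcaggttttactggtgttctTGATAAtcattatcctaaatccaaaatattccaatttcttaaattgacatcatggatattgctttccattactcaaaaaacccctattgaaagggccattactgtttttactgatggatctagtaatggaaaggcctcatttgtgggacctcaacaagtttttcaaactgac
SNCAIP-AS3: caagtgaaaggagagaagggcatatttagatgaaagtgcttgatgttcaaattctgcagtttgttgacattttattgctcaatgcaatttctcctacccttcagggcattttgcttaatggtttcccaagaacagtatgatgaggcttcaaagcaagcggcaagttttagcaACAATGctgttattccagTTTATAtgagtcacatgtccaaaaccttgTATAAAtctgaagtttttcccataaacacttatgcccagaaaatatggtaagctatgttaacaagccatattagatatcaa

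Neither window held the octamer ATGCAAAT, the sequence that POU-domain factors such as OCT4 are known to bind. A match is a string of letters and not evidence of binding, and its absence says only that these letters are not in this window. Over all 267 windows of the RNAs the octamer stood in 1.87%, against 1.77% of the 35116 windows of all genes. The SOX motif CATTGTN stood in 10.9% against 10.8%, the GATA motifs AGATAAN or TGATAAN in 18.7% against 16.3%, the T-box motif AGGTGTGA in 1.12% against 0.98%, and TATAAA in 8.61% against 11.5%. The ETS motif CCGGAAG stood in 16.1% of member windows, against 10.3% of all windows. By call at day 4 against day 0, it stood in 3 of 25 windows of RNAs that were lower, in 1 of 31 of those that were higher and in 39 of 211 of those not called. These are 12, 3.23 and 18.5% of the windows.

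Calls were made among genes that reached 1 CPM in 1 or both of the libraries compared. A gene was called when its log2(CPM + 1) moved by 1 or more, that is 2-fold in CPM + 1. The exact interval of its count ratio also had to leave out 1. At low levels this asks for more than a 2-fold ratio of CPM, so the rule is stricter there. At day 2 against day 0, 320 RNAs passed the filter on low values. Of these, 34 (10.6%) were higher and 19 (5.94%) lower, against 12.9% higher and 8.81% lower among 15379 genes of all kinds. The median difference of log2(CPM + 1) was 0.09 in the RNAs and 0.00 over all genes tested. Both shares were near the background.

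Several of the RNAs that were lower at day 2 had already reached their final level. LINC00698 had 9.89 CPM at day 0 and 0.196, 0.387 and 0.182 CPM at days 2, 3 and 4, which are 51, 1, 2 and 1 reads. B3GALT5-AS1 had 16.7, 1.57, 0.580 and 1.09 CPM, and DENND5B-AS1 had 15.1, 0.785, 0.966 and 1.09 CPM. All 3 were under 2 CPM from day 2 on. B3GALT5-AS1 was 10.6-fold lower at day 2 than at day 0 (5.16 to 25.4), DENND5B-AS1 19.3-fold (7.24 to 72.5) and LINC00698 50.4-fold (8.65 to 2030). PRKCQ-AS1 had 16.9, 5.30, 3.09 and 4.18 CPM, LHX4-AS1 had 9.31, 2.94, 3.67 and 3.09 CPM, and KDM4A-AS1 had 7.95, 2.16, 4.64 and 3.09 CPM. LINC02891 had 7.37, 2.35, 4.45 and 4.18 CPM. All of these stood highest at day 0, and none was called at day 4 against day 2.

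Among the RNAs that were higher at day 2, a first group kept or extended its level. HOXB-AS3 lies in the cluster of HOXB homeobox genes, which set position along the body axis. It was listed at 0 at day 0 and had 9.81, 25.3 and 26.5 CPM at days 2, 3 and 4. Against a floor of 3 counts in the day 0 library, the level of HOXB-AS3 was 16.9-fold higher at day 2 and 45.6-fold higher at day 4. These folds leave out the counting error of the later library. The homeobox genes whose spans it overlaps were HOXB5, with 0.194, 5.10, 25.5 and 36.0 CPM, and HOXB6, with 0, 42.8, 94.3 and 113.8 CPM. By FPKM, HOXB-AS3 was the 9th highest of the 323 RNAs at day 4, with 51.4 FPKM.

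LINC00261 stands next to FOXA2, the gene of a pioneer factor of endoderm, and is known as an RNA of definitive endoderm. It had 0.194, 9.02, 22.6 and 25.6 CPM at days 0, 2, 3 and 4, where the value at day 0 is 1 read. FOXA2 had 0.194, 7.06, 13.9 and 14.5 CPM on the same days. Both were near the detection limit at day 0 and highest at day 4. LINC00261 was 46.5-fold higher at day 2 than at day 0 (7.95 to 1877), and 2.84-fold higher at day 4 than at day 2 (2.02 to 4.05). HOXB-AS3 and LINC00261 were the only 2 of the 323 RNAs called higher both at day 2 against day 0 and at day 4 against day 2, a class that held 0.619% of the RNAs and 1.68% of all genes tested. Summed over 5 endoderm markers, FOXA2 among them, CPM was 1.75, 399.7, 337.8 and 355.0 at days 0, 2, 3 and 4. The part of endoderm cells in the level of LINC00261 was not tested.

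The windows of HOXB-AS3 (chr17:48595708-48596007, plus strand) and LINC00261 (chr20:22578593-22578892, minus strand) are shown next. Only these RNAs were called higher both at day 2 against day 0 and at day 4 against day 2. Neither was called at day 4 against day 3. Capitals again mark motif matches. In HOXB-AS3 the match is TTATCA, the reverse complement of the GATA motif, 155 bases before the start and inside a run of repeated 3-base units. In LINC00261 they are the SOX motif CATTGT 92 bases and TTTATA 74 bases before the start.
HOXB-AS3: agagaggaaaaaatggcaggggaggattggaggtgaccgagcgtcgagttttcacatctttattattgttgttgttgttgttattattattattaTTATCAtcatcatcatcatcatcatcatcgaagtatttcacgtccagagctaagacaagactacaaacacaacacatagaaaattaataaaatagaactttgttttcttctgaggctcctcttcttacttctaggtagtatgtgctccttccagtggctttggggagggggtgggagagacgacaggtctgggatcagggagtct
LINC00261: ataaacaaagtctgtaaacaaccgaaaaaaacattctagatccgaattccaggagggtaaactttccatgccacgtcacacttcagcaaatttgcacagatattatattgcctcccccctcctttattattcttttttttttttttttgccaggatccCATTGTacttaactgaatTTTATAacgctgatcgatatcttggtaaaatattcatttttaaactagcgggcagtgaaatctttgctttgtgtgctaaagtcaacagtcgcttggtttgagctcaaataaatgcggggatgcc

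GATA3-AS1, LINC00479, USP3-AS1 and TRG-AS1 were higher at day 2 and then level. GATA3-AS1 starts beside GATA3, a zinc-finger factor of trophoblast, amnion and other lineages, and had 0.194, 7.45, 8.12 and 7.27 CPM at days 0, 2, 3 and 4. GATA3 itself had 0.776, 98.3, 98.0 and 85.4 CPM, and 4 trophoblast and amnion markers, GATA3 among them, summed to 6.21, 169.5, 175.5 and 122.7 CPM. The sum rests on GATA3 and TFAP2A, a factor with 0.388, 67.7, 74.8 and 35.3 CPM, while the keratin gene KRT7 had 4.85, 2.94, 2.51 and 2.00 CPM and the hormone subunit gene CGA 0.194, 0.588, 0.193 and 0 CPM. The part of such cells in the level of GATA3-AS1 was not tested. LINC00479 had 0.194, 8.04, 6.38 and 7.09 CPM, USP3-AS1 had 0.388, 6.08, 7.92 and 7.45 CPM, and TRG-AS1, from the T cell receptor gamma locus, had 2.13, 17.6, 24.4 and 17.5 CPM. None of the 4 was called between day 2 and day 4. With 1 read at day 0, the ratio of day 2 to day 0 was 38.4 for GATA3-AS1 (6.49 to 1558).

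A second group peaked at day 2. HAS2-AS1, antisense to the hyaluronan synthase gene HAS2, had 0.776, 37.3, 20.5 and 8.54 CPM at days 0, 2, 3 and 4, and HAS2 had 8.92, 817.6, 543.7 and 237.9 CPM. COCH-AS1, antisense to the gene of the matrix protein cochlin, had 7.76, 108.1, 42.1 and 48.0 CPM, and COCH had 16.9, 245.6, 102.0 and 94.5 CPM. In both pairs each gene was highest at day 2 and above its day 0 level in every later library. HAS2-AS1 was 48.0-fold higher at day 2 than at day 0 (18.5 to 178.2) and 4.36-fold lower at day 4 than at day 2 (3.16 to 6.14). COCH-AS1 was 13.9-fold higher at day 2 than at day 0 (10.1 to 19.7) and 2.25-fold lower at day 4 than at day 2 (1.94 to 2.62).

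LINC00467 had 1.16, 17.6, 6.76 and 3.27 CPM, and LINC00842 had 0, 6.08, 2.90 and 1.82 CPM. HECTD2-AS1 had 102.4, 217.5, 144.6 and 66.5 CPM, while HECTD2, a ubiquitin ligase gene, had 25.8, 40.4, 29.4 and 23.3 CPM. LINC01002 had 22.7, 58.9, 52.6 and 16.2 CPM, and BASP1-AS1 had 3.88, 11.6, 3.67 and 2.91 CPM. Each of these 5 had its highest library at day 2. In all, 12 RNAs (3.72%) were called higher at day 2 and lower again at day 4, against 2.84% of all genes tested. The other 5 were AFAP1-AS1, JMJD1C-AS1, LINC00999, SBF2-AS1 and ZNF436-AS1.

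**Figure D3:**
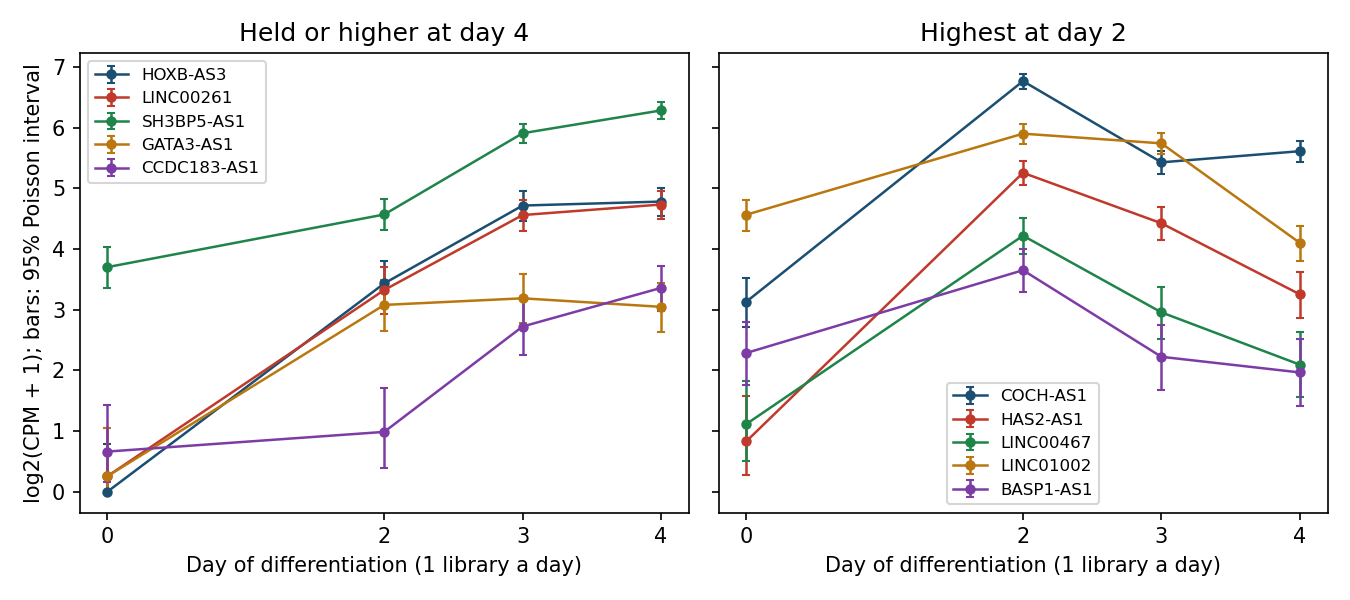
Level on the log2(CPM + 1) scale (vertical axis) of 5 RNAs that were held or higher at day 4 (left) and 5 RNAs that were highest at day 2 (right), against day, with 1 library a day; bars are exact 95% Poisson intervals. HOXB-AS3 and LINC00261 both climb to their day 4 level on the left, and COCH-AS1 and HAS2-AS1 drop back from their day 2 level on the right.

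After day 2 more of the RNAs were called lower than higher, and most were not called. At day 3 against day 2, 10 of 321 (3.12%) were higher and 18 (5.61%) lower, where all genes gave 5.82% higher and 3.51% lower. At day 4 against day 3, 3 of 320 (0.938%) were higher and 21 (6.56%) lower, against 2.96% and 4.18% of all genes. The 3 were LINC01558, LINC01106 and LINC00847, with 1.93, 4.45 and 0.966 CPM at day 3 and 4.91, 10.5 and 3.45 CPM at day 4. Across the whole step from day 2, 9 of 322 (2.8%) were higher at day 4 than at day 2 and 37 (11.5%) lower, against 8.09% and 7.5% of all genes. By this rule the share that was lower stood above the background in each of these 3 comparisons, and the share that was higher stood below it. With a pseudocount of 0.1 CPM in place of 1, 21 RNAs were higher and 19 lower at day 3 against day 2, against 6.59% and 4.11% of all genes, so the split there depends on the pseudocount. Other noncoding genes were lower in 7.58% at day 3 against day 2, in 8.4% at day 4 against day 3 and in 9.5% at day 4 against day 2.

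The median difference of log2(CPM + 1) at day 3 against day 2 was 0.03 in the RNAs and 0.00 over all genes tested. The median at day 4 against day 3 was -0.23 in the RNAs, with -0.23 in the LINC RNAs and -0.22 in the antisense RNAs. Other noncoding genes had a median of -0.14, genes with a coding transcript 0.00, and all genes -0.01. Between day 4 and day 2 the median was -0.15 in the RNAs, -0.11 in other noncoding genes, 0.03 in genes with a coding transcript and 0.02 over all genes. In these comparisons of day 4 with days 3 and 2 the median of other noncoding genes lay between the RNAs and the coding genes. Against day 0 it did not. There the median was -0.12 in the RNAs, -0.14 in other noncoding genes and 0.04 in genes with a coding transcript. Only 50 of the 323 RNAs (15.5%) were highest at day 4, where 27.4% of all genes tested were, and 97 (30%) were highest at day 0, against 34.4%.

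By kind, 3 of 119 LINC RNAs (2.52%) were higher at day 4 than at day 2 and 17 (14.3%) lower, while 6 of 202 antisense RNAs (2.97%) were higher and 19 (9.41%) lower. Against day 0, 9 of 120 LINC RNAs (7.5%) were higher at day 4 and 15 (12.5%) lower, and 21 antisense RNAs (10.4%) were higher and 23 (11.4%) lower. No test of the difference between these kinds was made. Over the whole course, 30 of 323 RNAs (9.29%) were higher at day 4 than at day 0 and 39 (12.1%) lower, against 16% and 11.8% of all genes. By this rule the RNAs were at the background share for a lower level and below it for a higher one. The 2 sets are unlike, since the background had no minimum sum of counts and listed genes had a higher median FPKM. The rule is stricter at low levels, and no background matched in level was computed.

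**Figure D4:**
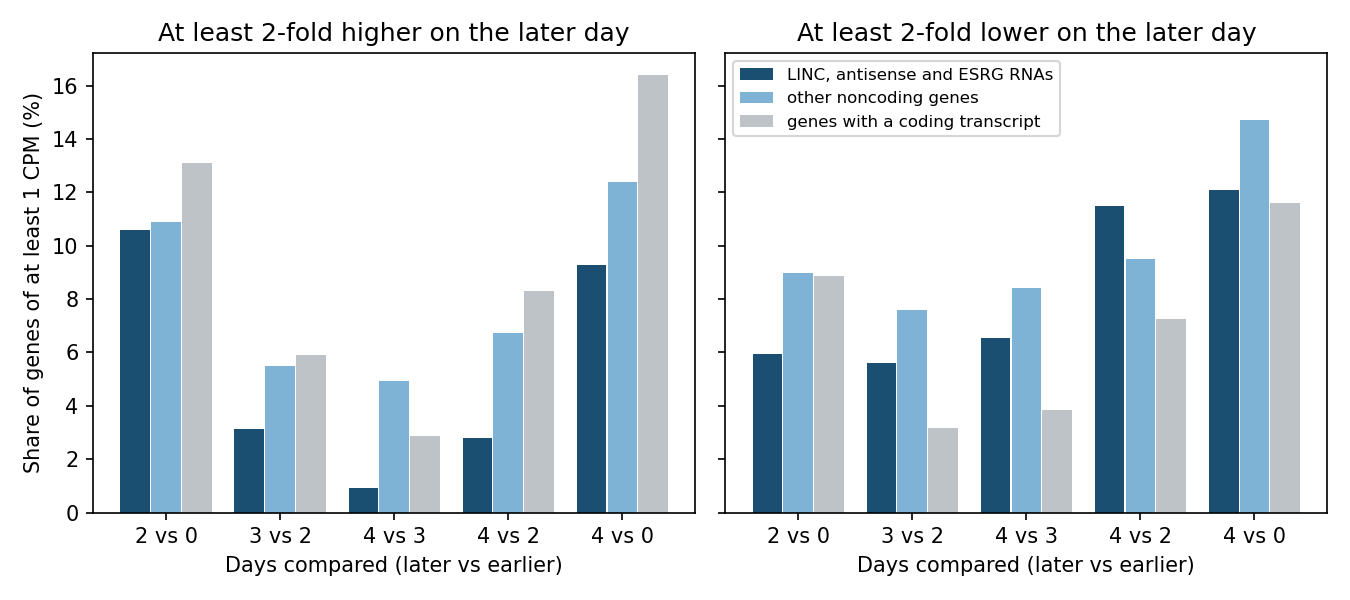
Share of the genes that passed the filter on low values (vertical axis, %) that were called higher (left) or lower (right) on the later day. Calls ask for at least 2-fold in CPM + 1. Shown are 5 pairs of days and 3 kinds of gene, and each bar comes from 1 library a day. At day 4 against day 2, 2.8% of the LINC, antisense and ESRG RNAs were higher and 11.5% lower, while genes with a coding transcript gave 8.31 and 7.27%.

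No call at day 2 and a lower level at day 4 than at day 2 was the most frequent pattern among RNAs with a call in either step. It held 22 RNAs (6.81%), LINC-ROR, LINC02582, TLR8-AS1 and SNCAIP-AS3 among them, against 3.54% of all genes tested. SLC7A11-AS1 belongs here as well, with 7.76, 16.3, 9.66 and 2.00 CPM at days 0, 2, 3 and 4. SLC7A11, the gene of the cystine and glutamate exchanger, had 148.7, 370.2, 159.6 and 62.5 CPM. OIP5-AS1, known to bind microRNA miR-7, had 93.5, 120.6, 72.5 and 58.5 CPM and was 2.06-fold lower at day 4 than at day 2. Loss at both steps was called in 3 RNAs (0.929%, against 0.893% of all genes), which were ESRG, PM20D1-AS1 and JAKMIP2-AS1. JAKMIP2-AS1 had 14.5, 6.08, 3.09 and 2.18 CPM. No RNA was lower at day 2 and higher again at day 4, a class with 1.11% of all genes.

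No call at day 2 and a higher level at day 4 than at day 2 was found in 7 RNAs (2.17%, against 5.05% of all genes tested). SH3BP5-AS1 had 12.0, 22.8, 59.1 and 77.1 CPM at days 0, 2, 3 and 4. SH3BP5, a regulator of the small GTPase RAB11, had 11.4, 26.7, 63.0 and 83.6 CPM, and both were higher in each later library. SH3BP5-AS1 was already 1.89-fold higher at day 2 than at day 0 (1.38 to 2.62), short of the 2-fold limit, and 3.39-fold higher at day 4 than at day 2 (2.75 to 4.20). CCDC183-AS1 had 0.582, 0.981, 5.61 and 9.27 CPM and CCDC183 had 0.194, 0.196, 5.03 and 13.4 CPM. COL4A2-AS1 had 0, 0.196, 3.48 and 4.18 CPM, beside 101.0, 269.9, 758.2 and 1219 CPM for COL4A2, a chain of basement membrane collagen IV. Both RNAs were near the floor until day 2 and above it at days 3 and 4. CADM3-AS1 had 3.49, 3.34, 5.80 and 9.996 CPM, MSC-AS1 had 2.13, 2.16, 4.83 and 6.73 CPM, and LINC01106 had 4.07, 4.71, 4.45 and 10.5 CPM. LINC00379 had 0.194, 0.196, 3.48 and 4.00 CPM.

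Short swings that the wider comparisons miss were seen between single days. LINC00670 had 9.31, 3.53, 11.6 and 4.91 CPM at days 0, 2, 3 and 4, and was called in each of the 3 steps, lower, higher and lower in turn. MYOCD, a gene beside it that codes for a coactivator of smooth and heart muscle genes, had 9.50, 81.4, 42.1 and 32.2 CPM. LARS2-AS1 had 0.970, 4.51, 0.773 and 2.54 CPM, and LINC01558 had 3.10, 5.10, 1.93 and 4.91 CPM. With 1 library a day, a swing in a single library has no second sample to set it against.

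Of the 8 RNAs with the highest mean CPM, ESRG, LINC02582 and HECTD2-AS1 are described above, and the other 5 follow. LINC00987 had 724.5, 541.4, 488.0 and 458.2 CPM at days 0, 2, 3 and 4 and was not called in any of the 5 comparisons. UGDH-AS1 had 730.5, 555.3, 605.9 and 340.1 CPM and was 2.15-fold lower at day 4 than at day 0 (2.03 to 2.27). UGDH, an enzyme gene of the pathway to hyaluronan, had 133.8, 115.0, 109.0 and 95.4 CPM. By FPKM, LINC00987 was the highest of the 323 RNAs at day 4 and UGDH-AS1 the second. WAC-AS1 had 149.1, 173.4, 147.8 and 158.8 CPM, MIF-AS1 had 170.3, 150.5, 119.4 and 133.2 CPM, and FGD5-AS1 had 136.5, 136.3, 127.9 and 122.1 CPM. The smallest spread of the 323 RNAs was that of LINC01278, with 27.5, 28.1, 28.2 and 26.5 CPM. In 160 of the 323 RNAs the highest library was less than 2-fold above the lowest, and 213 had no call in any of the 5 comparisons. Neither share was computed over all genes.

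The partner of an antisense RNA, the gene named before -AS, was measured for 197 of 202 RNAs, and the annotated spans overlap in 169 of these pairs. At day 2 against day 0, 33 of these antisense RNAs were called. The partner was called in the same direction in 13 of these pairs, in the opposite direction in 0, and not called in 20. At day 4 against day 0, 41 antisense RNAs were called, with the partner called in the same direction in 20, in the opposite direction in 5, and not called in 16. Over all 197 pairs, 36 partners were called at day 2 against day 0 and 51 at day 4 against day 0. Pairs with both genes called thus moved mostly together. Of the pairs with the same direction, 12 at day 2 and 18 at day 4 had overlapping spans, where reads cannot be told apart. Without overlap, 3 antisense RNAs were called at day 2 against day 0, and the partner was not called in 2. At day 4 against day 0, 6 were called without overlap. The partner was called in the same direction in 2, those of B3GALT5-AS1 and TMEM51-AS1, and not called in 4.

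B3GALT5 makes glycolipid sugar chains that include the stem cell antigen SSEA-3. It had 24.2, 0.981, 0.387 and 1.64 CPM at days 0, 2, 3 and 4, and its ratio of day 2 to day 0 was 0.0405 (0.0129 to 0.0970), beside 0.0941 (0.0394 to 0.194) for B3GALT5-AS1. HAS2 was 91.7-fold higher at day 2 than at day 0 (68.6 to 125.4), beside 48.0-fold for HAS2-AS1, and COCH 14.6-fold (11.7 to 18.3), beside 13.9-fold for COCH-AS1. In these 3 pairs the counting intervals of the RNA and its partner overlapped.

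In 5 pairs the genes were called in opposite directions at day 4 against day 0. MAGI2-AS3 had 9.12, 19.4, 37.3 and 28.4 CPM at days 0, 2, 3 and 4, while MAGI2, a scaffold protein gene, had 20.2, 20.8, 3.87 and 1.82 CPM. MAGI2-AS3 was 3.11-fold higher at day 4 than at day 0 (2.23 to 4.41), and MAGI2 was 11.1-fold lower. DENND5B-AS1 was 13.9-fold lower at day 4 than at day 0 (6.09 to 38.9), while DENND5B, a regulator of RAB GTPases, had 23.7, 32.0, 54.1 and 48.9 CPM and was 2.07-fold higher. In both pairs the counting intervals of the antisense RNA and its partner lay on opposite sides of a ratio of 1. GNAS-AS1, from the imprinted GNAS locus, had 4.85, 1.57, 2.71 and 1.27 CPM, while GNAS had 936.7, 1596, 1660 and 1963 CPM. KLF3-AS1 had 16.7, 9.42, 6.76 and 5.63 CPM, and KLF3, a transcriptional repressor gene, had 35.5, 60.4, 86.8 and 110.9 CPM. JMJD1C-AS1 had 0.582, 5.89, 5.03 and 2.36 CPM, and JMJD1C had 354.5, 245.4, 212.4 and 105.8 CPM. In these 3 pairs too the antisense RNA and its partner were called in opposite directions. The declining SNCAIP-AS3 parted from SNCAIP at day 4 against day 2: the partner had 5.24, 2.75, 7.73 and 8.91 CPM. TLR8, the partner of the declining TLR8-AS1, was listed at no more than 0.392 CPM in any library.

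**Figure D5:**
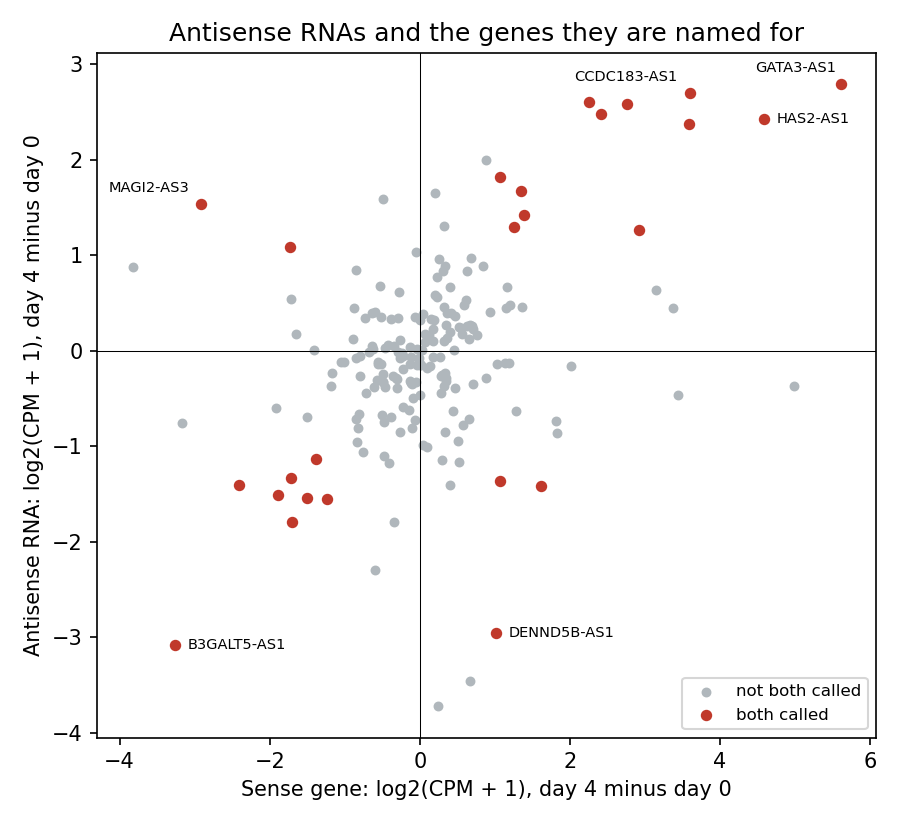
Difference of log2(CPM + 1) at day 4 minus day 0 for each antisense RNA (vertical axis) against the gene it is named for (horizontal axis), over 197 pairs; red points are pairs with both genes called. The red points fill the upper right and lower left, with 5 in the other corners, MAGI2-AS3 and DENND5B-AS1 among them.

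For LINC RNAs and ESRG, the nearest coding gene on each side was taken from the RefSeq gene order, which gave 242 pairs, 200 of them measured. Of the measured pairs, 40 held an RNA called at day 4 against day 0. The neighbour was called in the same direction in 6, in the opposite direction in 6, and not called in 28. At day 2 against day 0 these counts were 5, 3 and 16 of 24, and at day 4 against day 2 they were 5, 3 and 25 of 33. ESRG lies within the span of CACNA2D3, a calcium channel subunit gene, which had 4.07, 0.981, 1.16 and 2.36 CPM at days 0, 2, 3 and 4. WDR7, beside LINC-ROR, had 31.6, 29.4, 27.6 and 23.1 CPM, and NETO1, beside LINC02582, had 19.2, 33.7, 21.1 and 13.8 CPM. WDR7 and NETO1 differed by less than 2-fold between day 4 and day 0. At day 4 against day 2, NETO1 was called lower with a ratio of 0.409, as was LINC02582, and WDR7 was not called. CADPS, beside LINC00698, had 13.8, 4.12, 7.34 and 7.63 CPM.

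Of 9 symbols listed for stem cell noncoding RNAs, among which LINC-ROR and LINCROR name the same gene, ESRG and LINC-ROR were measured, and both were lower at day 4 than at day 0. Of 13 HOX antisense RNAs 6 were measured, and HOXB-AS3 alone had enough counts to be a member. Below the limit, HOXA-AS3 had 0, 1.18, 1.35 and 3.63 CPM at days 0, 2, 3 and 4, and HOXA10-AS had 0, 1.18, 1.35 and 3.09 CPM. HOXB-AS1 had 0, 0, 2.71 and 1.09 CPM. Of 18 RNAs from loci of germ layer and vessel regulators 11 were measured, with GATA3-AS1 and LINC00261 as the members. FENDRR, known from lateral plate mesoderm, had 0.388, 2.16, 1.35 and 7.45 CPM. Among 7 widely expressed noncoding RNAs, none of them a member, the summed level was 810.3, 822.2, 838.2 and 812.7 CPM, with MALAT1 at 88.2, 229.3, 289.9 and 297.7 CPM and GAS5 at 100.1, 56.1, 48.9 and 64.5 CPM.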

How the data were processed

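RNA-seq of 4 libraries, 1 each at days 0, 2, 3 and 4, was analysed from gene tables as the authors deposited them. The members, lists and rules were chosen with earlier results of these data known. Per the file headers, each table gives an expected count, a transcript length in bases and FPKM per Entrez gene ID. The submitters' processing notes name BWA, Bowtie, RSEM and hg19, and the design text of the series also names an analysis of variance, TopHat and Cufflinks; the sources used here do not give their versions or roles. The deposited length was used for no value of its own.

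Deposited expected counts were rounded to whole numbers, and a gene absent from a table was taken as 0. CPM used TMM factors of edgeR 4.0.16 in R 4.3.3 (1.02, 0.981, 0.995 and 1.00) over all genes. Ratios are of CPM with exact conditional binomial 95% intervals. A fold against 0 counts is set against a floor of 3 counts, or 0.545 to 0.588 CPM, without counting error of the other library. A count was whole where it had no fractional part as deposited. Deposited FPKM served to order levels between genes. Names, neighbours, spans and promoters came from RefSeq GRCh38.p14, which matched 19273 of 19390 IDs; 67 of 2526 noncoding IDs had no match and could not be members. No coordinate was converted between builds. Promoter windows came from the RefSeq promoter table.

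RNAs named are ESRG, the 8 members with the largest difference in each direction at day 2 against 0, 4 against 2 and 4 against 0 among those called with at least 4 CPM, the 4 largest for each single-day step, the 8 with the highest mean CPM, those at the count limit, members of the fixed lists, and partners and neighbours of these. LINC02275, JAKMIP2-AS1, LINC01002, BASP1-AS1, LINC00379, LINC01278, LINC00847, OIP5-AS1, and the pairs MAGI2-AS3, GNAS-AS1, KLF3-AS1, JMJD1C-AS1 and TMEM51-AS1 were chosen after their values were seen, as were RNAs named only to fill a class. Other pseudocounts, other scalings, filters, call rules and member rules were tried as alternatives, and the call rule was run on simulated counts. The simulated counts held counting error only, so they say nothing of the spread between cultures.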

Additional observations from a re-analysis of the deposited data

How the results depend on the processing

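No paired analysis was possible because each day has 1 library. Median-of-ratios size factors, library totals, no filter and a 2-fold rule without the interval moved no count of RNAs by more than 1.5 times. The counts are given as higher and lower, in the order day 2 against 0, day 3 against 2, day 4 against 3, day 4 against 2 and day 4 against 0. With a pseudocount of 5 CPM they were 18 and 5, 2 and 6, 0 and 10, 4 and 18, and 12 and 17. All genes then gave 8 and 4.12%, 2.45 and 1.26%, 0.826 and 1.34%, 3.94 and 3.95%, and 9.97 and 6.75%. A 4-fold rule gave 15 and 3, 0 and 0, 0 and 1, 3 and 10, and 13 and 11. All genes then gave 4.63 and 1.93%, 1.32 and 0.406%, 0.377 and 0.228%, 2.32 and 1.4%, and 6.27 and 3.44%. The 4-fold rule left 5, 0, 0, 3 and 8 antisense pairs called in the same direction. It left 0 in opposite directions at day 3 against 2, day 4 against 2 and day 4 against 0. A minimum sum of 100 counts gave 22 and 10, 5 and 11, 1 higher, 5 higher, and 17 and 24. A minimum sum of 20 gave 19 higher at day 3 against 2, 10 at day 4 against 3, 17 at day 4 against 2 and 49 at day 4 against 0. Another minimum sum also changes the number of RNAs, so these counts are not directly comparable with the main ones. The shares over all genes stay those of the main rule. LINC RNAs with ESRG gave 11 and 6, 5 and 8, 11 lower, 3 and 18, and 9 and 16. Antisense RNAs alone gave 5 and 10 at day 3 against 2, 0 and 10 at day 4 against 3, 19 lower at day 4 against 2 and 23 lower at day 4 against 0. A pseudocount of 0.1 CPM gave 21 higher at day 3 against 2 and 35 lower at day 4 against 3. All genes then gave 6.59 and 5.17%. A minimum of 5 CPM gave 6 higher at day 3 against 2 and 1 at day 4 against 3. All genes then gave 4.92 and 2.1%. The deposited FPKM gave 6 higher at day 3 against 2, 0 higher at day 4 against 3 and 22 lower at day 4 against 2. All genes then gave 4.51, 2.59 and 5.81%. The counts of higher RNAs in the single-day steps are therefore small and depend on the rule. Those of the wider comparisons depend on it as well. By the main rule they were 9 at day 4 against 2 and 30 at day 4 against 0. At a minimum sum of 20, with more RNAs, they were 17 and 49. Of 62 differences of named RNAs under 6 settings each, 356 of 372 values kept their call, 16 lost it, and none changed direction. With 5.04 to 5.49 M counts a library, RNAs under 5 CPM rest on few reads, and without a second library per day no difference could be set against the spread between cultures.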
